A study of Homo sapiens with 48 samples.

Results

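The genes examined were 8 immediate early genes, chosen by name from the count table: the zinc finger factors EGR1, EGR2 and EGR3, the orphan nuclear receptors NR4A1 and NR4A3, the EGR corepressor NAB2, and IER2 and IER3. They are 8 of 25066 genes in the table, and all 8 were among the 13881 genes with enough reads to be tested. The RNA-seq series holds 48 libraries of TMD8 and HBL1, both human diffuse large B cell lymphoma (DLBCL) lines and both engineered to carry Cas9, a modification that the vehicle groups share. In each line, cells received vehicle (DMSO), 5 µM NGI-1, which inhibits the oligosaccharyltransferase that attaches N-glycans to proteins, 50 nM acalabrutinib, which inhibits the kinase BTK, or 20 nM copanlisib, which inhibits PI3K. Cells were collected after 3, 6 or 24 h, with 2 libraries in each of the 24 groups. No label states that the libraries of a group are separate cultures. The p-values therefore measure only the spread between these libraries, which may be technical.

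Immediate early genes are transcribed within minutes of a signal, without new protein synthesis, and their messages decay fast. In B cells, the antigen receptor activates BTK and PI3K, which feed the phospholipase C, calcium and RAS-ERK routes. ERK-activated ETS factors and SRF drive the EGR genes through CArG boxes, and calcium and CREB-family factors drive the NR4A genes. EGR proteins in turn induce NAB2, which binds them and limits their activity, while EGR2, EGR3 and the NR4A receptors are known to restrain lymphocyte activation.

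RefSeq promoter sequence, taken from the 250 bases before each start in the build GRCh38.p14, was matched for 6 of the 8 genes with 9 starts in all (EGR3 and IER3 had no match). The stretches below are shown because EGR1 and EGR2 share a motif that few promoters hold and NR4A3 has a cluster of another. All motifs were searched on both strands. Each stretch is written 5′ to 3′ on the strand of its gene, and capitals mark CArG boxes in EGR1 and EGR2 and CRE half-sites (TGACG on either strand) in NR4A3, where 3 of 4 fall in the stretch. Which start these cells use was not measured, and the EGR2 stretch belongs to 1 of its 3 RefSeq starts, the start with a CArG box. The windows of the other EGR2 starts had no CArG box and no match to any other motif searched.
EGR1, chr5:138465349-138465448, plus strand: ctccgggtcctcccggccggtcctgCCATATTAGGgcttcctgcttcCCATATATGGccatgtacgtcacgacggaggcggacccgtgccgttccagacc
EGR2, chr10:62816387-62816486, minus strand: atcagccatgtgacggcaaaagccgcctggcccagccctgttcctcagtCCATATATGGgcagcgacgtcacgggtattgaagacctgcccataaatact
NR4A3, chr9:99821755-99821814, plus strand: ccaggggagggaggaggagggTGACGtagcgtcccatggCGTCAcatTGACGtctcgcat

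The EGR1 stretch held 2 CArG boxes, 105 and 83 bases before the start, and the EGR2 stretch held 1, 71 bases before its start. A CArG box on either strand was present in 1.16% of the 35116 RefSeq promoters searched over the same length, and 0.0313% held 2 or more. NR4A3 had 4 CRE half-sites, 109, 91, 83 and 25 bases before its start, a motif found at least once in 21.2% of promoters and at least 2 times in 4.76%. EGR1 and the same EGR2 start each had 2 such half-sites. The EGR motif GCGNGGGCG (8.41% of promoters) had a match in the NAB2 window, 62 bases before the start, and in that of EGR1 itself, 198 bases before. IER2 had 1 CRE half-site, 140 bases before its start. The window of the NR4A1 start at chr12:52022832 and the IER2 window each had an ETS core (CCGGAA, 14.5%), 17 and 26 bases before the start. That of the other NR4A1 start, at chr12:52037715, had no match to any motif searched. Neither NR4A1 window had a CRE half-site. These matches are descriptions of sequence, and no binding was measured.

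The libraries held 7165377 to 11999050 counted reads, and levels are given as CPM, counts relative to library size after TMM scaling, replicate 1 before replicate 2. The B cell markers MS4A1 (1280 to 2000 CPM in TMD8 and 639 to 912 CPM in HBL1), CD79A (480 to 867 and 567 to 1080 CPM) and PAX5 (300 to 471 and 282 to 407 CPM) were present in every library. The 6 T and NK cell markers summed to at most 2.53 CPM in either line, the 6 myeloid markers to at most 3.46 CPM, and S100A9 was at 0 in all libraries. Of 6 stromal or epithelial markers, EPCAM (7.15 to 15.9 CPM) and COL1A2 (2.79 to 15.2 CPM) were present in HBL1. Heat-shock genes, which handling can move along with immediate early genes, were not called higher with any compound, and 25%, 27.1% and 39.6% of their 48 tests were called lower with NGI-1, acalabrutinib and copanlisib, none of them at 3 h. Over the same comparisons 4.73%, 5.56% and 8.13% of the tests of all genes were called lower. At 24 h the summed heat-shock level was 10200 to 10300 CPM in the vehicle libraries of TMD8 and 5880 to 6760 CPM in the treated ones, and 10700 to 11500 against 6540 to 7560 CPM in HBL1. The vehicle libraries thus stood above all treated libraries of their line at 24 h, as they also did in TMD8 at 3 h (6240 to 6310 against 5240 to 6200 CPM) and 6 h (6780 to 6810 against 4960 to 6270 CPM). The part of this difference in the comparisons with vehicle below was not tested. In HBL1, the EGR1 level was higher in replicate 2 than in replicate 1 in 12 of 12 groups, by 1.1 to 2.55 times, and NR4A3 was higher in replicate 2 in 4 of 4 groups at 3 h and 4 of 4 at 6 h. The summed heat-shock level in HBL1 at 3 h was 6380 to 7680 CPM in replicate 1 and 5030 to 6240 CPM in replicate 2, and its part in that offset was not tested. In bulk RNA, a lower level in every cell and a smaller share of cells with a high level cannot be told apart.

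**Figure D1:**
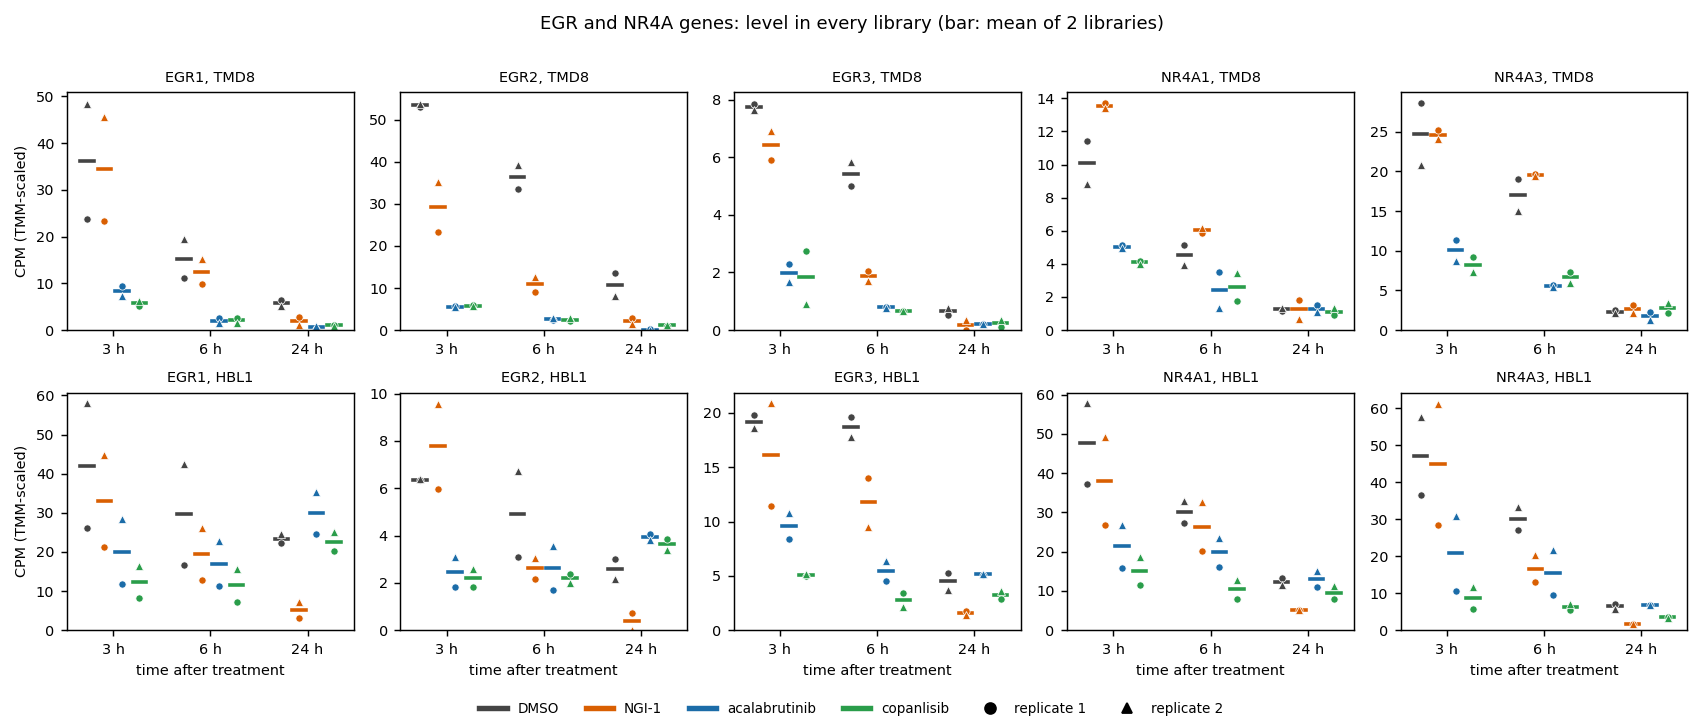
Levels of EGR1, EGR2, EGR3, NR4A1 and NR4A3 in CPM (TMM-scaled, linear axes that differ between panels and start at 0) in TMD8 (top) and HBL1 (bottom) by time and compound; symbols are libraries and bars are means of 2. In TMD8, EGR2 was at 53.1 and 53.8 CPM with DMSO at 3 h and under 6 CPM with either kinase inhibitor, and all 5 genes were lower at 24 h than at 3 h with DMSO in both lines, although EGR1 in HBL1 did not pass the test.

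With vehicle alone, most of the genes fell between 3 h and 24 h. In TMD8, EGR3 fell from 7.86 and 7.66 CPM at 3 h to 0.538 and 0.763 CPM at 24 h, a log2 difference of -3.54 ± 0.41 (SE; edgeR quasi-likelihood test, Benjamini-Hochberg adjusted p = 5.3e-09). NR4A3 fell there from 28.6 and 20.8 to 2.58 and 2.1 CPM (-3.41 ± 0.53), and NR4A1 from 11.4 and 8.82 to 1.18 and 1.34 CPM (-3 ± 0.55). EGR1 (-2.62 ± 0.63, and -2.03 without replicate 2 of the 3 h group), EGR2 (-2.32 ± 0.26) and NAB2 (-1.43 ± 0.15) also passed, so that 6 of the 8 genes were lower at 24 h in TMD8, where 15.9% of all tested genes were. In HBL1, 6 of 8 were lower as well (all genes: 19%), with NR4A3 at -2.86 ± 0.43, EGR3 at -2.07 ± 0.26, NR4A1 at -1.95 ± 0.32, NAB2 at -1.86 ± 0.14, EGR2 at -1.28 ± 0.38 and IER2 at -0.50 ± 0.16. The EGR2 and IER2 calls in HBL1 were lost without replicate 2 of the 24 h vehicle group (adjusted p = 0.079 and 0.077). EGR1 in HBL1 was at 26 and 58 CPM at 3 h and at 22.2 and 24.5 CPM at 24 h (-0.85 ± 0.52, adjusted p = 0.21). IER3 passed in neither line. By 6 h, 2 of 8 were called lower in TMD8 (NAB2 and IER2, all genes 3.95%) and 1 of 8 in HBL1 (NAB2, all genes 4.93%). The small IER2 fall in TMD8 (-0.43 ± 0.14, adjusted p = 0.048) did not pass in 5 of 8 alternative fits, nor without replicate 1 or 2 of the 6 h group or replicate 2 of the 3 h group (adjusted p up to 0.49). The NAB2 fall in HBL1 did not pass without replicate 2 of the 6 h group (adjusted p = 0.1).

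The lines also differed from each other with vehicle, in a direction that depended on the gene. EGR2, IER3 and IER2 were higher in TMD8 at each time. That count of 3 of 8 was near the background, as 33%, 33.1% and 32.1% of all genes were higher at 3, 6 and 24 h. At 3 h the difference was 3.07 ± 0.28 for EGR2, 3.10 ± 0.30 for IER3 and 0.72 ± 0.14 for IER2 on the log2 scale. NR4A1, EGR3 and NAB2 were lower in TMD8 at each time, by 2.22 to 3.27, 1.30 to 2.77 and 0.45 to 1.27 respectively in size. Counts of genes lower in TMD8 were 4 of 8 at 3 h, 3 of 8 at 6 h and 5 of 8 at 24 h, against 32.1%, 32.5% and 33.8% of all genes, so the shares were near the background at 3 and 6 h. NR4A3 was lower in TMD8 at 3 h (-0.92 ± 0.37) and at 24 h (-1.47 ± 0.64), and EGR1 at 24 h (-2.01 ± 0.65). The NR4A3 calls were lost without replicate 2 of either 3 h vehicle group (adjusted p up to 0.28) and without any 1 of the 24 h vehicle libraries (up to 0.17). The EGR1 call was lost without TMD8 replicate 2 (0.06), and the NAB2 call at 24 h without replicate 2 of either line (up to 0.13).

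EGR2, a zinc finger factor induced by antigen receptor signals, had the largest changes of the 8 genes against vehicle in TMD8 with both kinase inhibitors at every time. At 3 h its level in TMD8 was 53.1 and 53.8 CPM with DMSO, 5.68 and 5.41 CPM with acalabrutinib, 5.97 and 5.69 CPM with copanlisib, and 23.3 and 35.2 CPM with NGI-1. At 6 h it was 33.6 and 39.3 CPM with DMSO, 2.33 and 2.95 CPM with acalabrutinib, 2.19 and 2.79 CPM with copanlisib, and 9.17 and 12.7 CPM with NGI-1. In none of these groups did the treated libraries overlap the vehicle libraries. The log2 differences at 3 and 6 h were -3.26 ± 0.29 and -3.78 ± 0.32 with acalabrutinib, and -3.19 ± 0.28 and -3.85 ± 0.32 with copanlisib (largest adjusted p of the 4, 1.2e-09). With NGI-1 the difference at 3 h was -0.87 ± 0.24 (adjusted p = 0.088), and at 6 h EGR2 fell by 1.73 ± 0.26 (adjusted p = 2.5e-05). At 24 h the vehicle level was 13.6 and 8.01 CPM, against 0.213 and 0 CPM with acalabrutinib, 0.993 and 1.21 CPM with copanlisib, and 2.76 and 1.49 CPM with NGI-1. The acalabrutinib libraries held 2 reads in all where the vehicle libraries held 210, a ratio of vehicle to acalabrutinib of 97.9 after scaling (exact 95% interval 26.8 to 814, counting error only). At 24 h EGR2 fell by 3.28 ± 0.42 with copanlisib and by 2.32 ± 0.38 with NGI-1. The TMD8 calls for EGR2 against vehicle passed with each library left out in turn, while the 24 h difference with acalabrutinib (-6.46 ± 0.65) moved to -9.62 without its replicate 1, which leaves 0 reads, and to -5.56 without its replicate 2.

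In HBL1, EGR2 had a lower vehicle level, of 6.33 and 6.4 CPM at 3 h, 3.08 and 6.73 CPM at 6 h and 2.99 and 2.16 CPM at 24 h. At 3 h the level was 1.84 and 2.58 CPM with copanlisib, a fall of 1.54 ± 0.39 on the log2 scale (adjusted p = 0.026). That call was lost without any 1 of the 4 libraries (adjusted p up to 0.24) and in a separate fit of the line. With acalabrutinib it was 1.81 and 3.1 CPM (-1.36 ± 0.38, adjusted p = 0.21). At 24 h the levels were 4.06 and 3.81 CPM with acalabrutinib and 3.86 and 3.4 CPM with copanlisib, above both vehicle libraries, without passing the test (0.59 ± 0.42 and 0.48 ± 0.42, adjusted p = 0.37 and 0.44). NGI-1 at 24 h left 0.737 and 0 CPM, 7 reads in all against 48, and EGR2 fell by 2.72 ± 0.68 (adjusted p = 0.0039). The call was lost without replicate 1 of the vehicle or replicate 2 of the NGI-1 group (adjusted p up to 0.081), and the value moved to -7.59 without NGI-1 replicate 1.

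EGR1, the factor that gives the family its name, was lower with both kinase inhibitors in TMD8. At 3 h it was at 23.7 and 48.4 CPM with DMSO, 9.39 and 7.33 CPM with acalabrutinib, 5.19 and 6.26 CPM with copanlisib, and 23.3 and 45.5 CPM with NGI-1. The NGI-1 libraries repeated the spread of the vehicle libraries, while the kinase inhibitor libraries lay below both. Copanlisib lowered EGR1 by 2.63 ± 0.64 at 3 h and by 2.91 ± 0.82 at 6 h (adjusted p = 0.029 and 0.017), and acalabrutinib by 2.90 ± 0.84 at 6 h (adjusted p = 0.048). The acalabrutinib difference at 3 h was -2.08 ± 0.61 (adjusted p = 0.34). At 6 h the levels were 11.1 and 19.5 CPM with DMSO, 2.56 and 1.53 CPM with acalabrutinib, 2.63 and 1.49 CPM with copanlisib, and 9.85 and 15.1 CPM with NGI-1. At 24 h, from a vehicle level of 6.35 and 5.24 CPM, it was at 0.32 and 0.883 CPM with acalabrutinib (-3.25 ± 1.26, adjusted p = 0.052), 1.19 and 0.965 CPM with copanlisib (-2.39 ± 1.11, adjusted p = 0.11) and 2.87 and 1.15 CPM with NGI-1 (-1.51 ± 0.98, adjusted p = 0.27). All 3 TMD8 calls depended on single libraries. The acalabrutinib call was lost without any 1 of its 4 libraries (adjusted p up to 0.34). The copanlisib calls were lost without replicate 2 of the vehicle group or either copanlisib library (up to 0.27 at 3 h and 0.17 at 6 h).

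In HBL1, EGR1 at 3 h was at 26 and 58 CPM with DMSO, 11.7 and 28.4 CPM with acalabrutinib, 8.31 and 16.4 CPM with copanlisib, and 21.3 and 44.8 CPM with NGI-1. In each of these groups replicate 2 was about as far above replicate 1 as in the vehicle group. No difference passed at 3 or 6 h in the reported fit, which leaves the replicate numbers out. With a replicate block within each line and time, more of the genes examined were called lower in HBL1 at both times with each kinase inhibitor, as counted below. At 24 h the levels were 22.2 and 24.5 CPM with DMSO, 24.7 and 35.2 CPM with acalabrutinib, 20.2 and 25 CPM with copanlisib, and 3.05 and 7.17 CPM with NGI-1. NGI-1 lowered EGR1 by 2.21 ± 0.67 (adjusted p = 0.022), a call lost without either vehicle library or replicate 1 of NGI-1 (adjusted p up to 0.19) and in a separate fit of the line.

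EGR3, a close relative with overlapping targets, fell with copanlisib at 3 and 6 h in both lines. In HBL1 at 6 h it was at 19.6 and 17.8 CPM with DMSO, 4.5 and 6.36 CPM with acalabrutinib, 3.4 and 2.11 CPM with copanlisib, and 14 and 9.52 CPM with NGI-1. The fall was 1.78 ± 0.26 with acalabrutinib and 2.75 ± 0.29 with copanlisib (adjusted p = 4.8e-06 and 1.3e-09), while the NGI-1 difference was -0.67 ± 0.24 (adjusted p = 0.23). In TMD8 at 6 h the levels were 5.01 and 5.84 CPM with DMSO, 0.814 and 0.765 CPM with acalabrutinib, 0.658 and 0.65 CPM with copanlisib, and 2.06 and 1.69 CPM with NGI-1. There EGR3 fell by 2.76 ± 0.43, 3.02 ± 0.43 and 1.52 ± 0.36 respectively. At 3 h it fell in TMD8 with acalabrutinib (-1.95 ± 0.34) and copanlisib (-2.06 ± 0.34, and -3.07 or -1.49 without copanlisib replicate 1 or 2), and in HBL1 with copanlisib (-1.91 ± 0.26). Acalabrutinib in HBL1 gave 8.42 and 10.8 CPM against 19.8 and 18.6 CPM (-1 ± 0.24, adjusted p = 0.056). At 24 h in TMD8 the vehicle libraries held 13 reads and no comparison with vehicle passed; NGI-1 left 3 reads, a vehicle to NGI-1 ratio of 3.81 (exact 95% interval 1.05 to 20.9). At 24 h in HBL1 EGR3 was at 5.28 and 3.73 CPM with DMSO and 1.79 and 1.39 CPM with NGI-1, a fall of 1.5 ± 0.38, lost without replicate 1 of the vehicle group (adjusted p = 0.098). The NGI-1 call at 6 h in TMD8 was lost without replicate 2 of either group (adjusted p up to 0.12) and the acalabrutinib call at 3 h without its own replicate 2 (0.098).

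The nuclear receptors NR4A1 and NR4A3 had their called changes mainly in HBL1 in the fit without a replicate block. Their products act without a known natural ligand. In HBL1 at 3 h, NR4A3 was at 36.5 and 57.6 CPM with DMSO, 10.7 and 30.8 CPM with acalabrutinib, 5.8 and 11.8 CPM with copanlisib, and 28.5 and 61.3 CPM with NGI-1. At 6 h it was at 27 and 33.3, 9.48 and 21.7, 5.45 and 7.02, and 13 and 20.2 CPM in the same order. The copanlisib libraries lay below the vehicle libraries at both times and, at 6 h, below all others, with falls of 2.44 ± 0.41 and 2.27 ± 0.45 (adjusted p = 0.00095 and 0.0013). The 3 h fall was 2.01 without copanlisib replicate 1 and 3.03 without its replicate 2. The acalabrutinib differences of -1.17 ± 0.37 and -0.94 ± 0.39 did not pass (adjusted p = 0.42 and 0.2). NR4A1 in HBL1 was at 37.3 and 57.9 CPM with DMSO and 11.4 and 18.6 CPM with copanlisib at 3 h, and at 27.3 and 32.9 against 8.06 and 12.7 CPM at 6 h, falls of 1.67 ± 0.31 and 1.53 ± 0.34. At 24 h NGI-1 left NR4A1 at 5.16 and 5.21 CPM against 13.2 and 11.4 CPM, and NR4A3 at 1.58 and 1.62 CPM against 7.07 and 5.77 CPM. These falls of 1.25 ± 0.41 and 2.01 ± 0.70 (adjusted p = 0.032 and 0.046) were each lost without any 1 of the 4 libraries (adjusted p up to 0.21). The NR4A1 calls with copanlisib were lost without copanlisib replicate 1 at 3 or 6 h, or vehicle replicate 2 at 3 h (adjusted p = 0.077 at most).

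In TMD8 the NR4A genes gave 1 call in 18 tests against vehicle in the reported fit, counting both genes. With a replicate block within each line and time, both were called lower with copanlisib at 3 h and with acalabrutinib at 6 h. Neither was called different between the lines for the effect of any compound in the reported fit. NR4A3 at 6 h was at 19.1 and 15 CPM with DMSO, 5.7 and 5.46 CPM with acalabrutinib, 7.35 and 5.95 CPM with copanlisib, and 19.7 and 19.4 CPM with NGI-1. Copanlisib passed at -1.37 ± 0.46 (adjusted p = 0.046, lost without any 1 of the 4 libraries, up to 0.26), and acalabrutinib did not at -1.61 ± 0.48 (adjusted p = 0.056). NR4A1 at 3 h was at 11.4 and 8.82 CPM with DMSO, 5.13 and 4.93 CPM with acalabrutinib, 4.2 and 3.99 CPM with copanlisib, and 13.7 and 13.4 CPM with NGI-1. The kinase inhibitor libraries lay below the vehicle libraries and the NGI-1 libraries above them, in each case without passing (adjusted p = 0.96, 0.17 and 0.92). At 24 h both NR4A genes were at 0.69 to 3.38 CPM in all 8 TMD8 libraries, and no comparison with vehicle passed there.

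**Figure D2:**
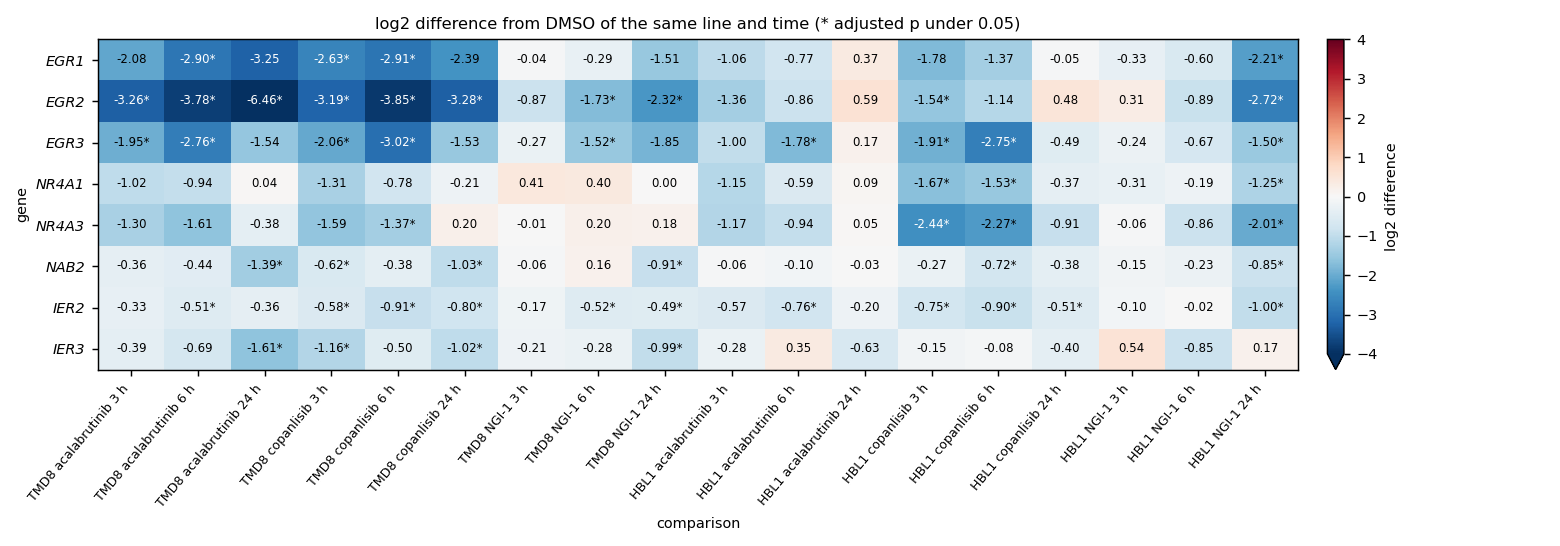
Log2 difference of each gene (rows) from DMSO of the same line and time for acalabrutinib, copanlisib and NGI-1 (columns), by colour and printed value, with an asterisk where the adjusted p was under 0.05. The 51 marked values were all negative, with the largest at -6.46 for EGR2 in TMD8 with acalabrutinib at 24 h, which rests on 2 reads.

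NAB2 binds EGR proteins and represses their targets. In the reported fit it was called lower in TMD8 with each compound at 24 h, and with copanlisib also at 3 h. At 24 h it was at 17.4 and 15.3 CPM with DMSO, 6.61 and 5.85 CPM with acalabrutinib, 8.14 and 7.84 CPM with copanlisib, and 8.62 and 8.74 CPM with NGI-1. All 6 treated libraries lay below the vehicle libraries, and the falls of 1.39 ± 0.20, 1.03 ± 0.19 and 0.91 ± 0.19 passed with each library left out in turn. In HBL1 at 24 h NGI-1 lowered NAB2 from 21.3 and 23.3 to 12.2 and 12.5 CPM (-0.85 ± 0.17), while with acalabrutinib it was at 22.3 and 21.5 CPM (-0.03 ± 0.16, adjusted p = 0.95). Copanlisib lowered NAB2 in HBL1 at 6 h (-0.72 ± 0.14) and in TMD8 at 3 h (-0.62 ± 0.14), the latter lost without vehicle replicate 2 or either copanlisib library (adjusted p up to 0.15). NAB2 exons overlap those of STAT6 on the other strand in the GENCODE annotation, as the exons of EGR3, NR4A1, IER2 and IER3 overlap antisense genes, and whether the counting used strand is not given in the sources used here.

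IER2, a nuclear protein that acts on transcription, had small called changes in both lines. Copanlisib lowered it in each of the 6 comparisons with vehicle, by 0.51 to 0.91 on the log2 scale. At 6 h it was at 29.3 and 28.9 CPM with DMSO and 15.7 and 15.2 CPM with copanlisib in TMD8, and at 21.6 and 21.6 CPM against 12.1 and 11 CPM in HBL1. Acalabrutinib lowered it at 6 h in both lines (-0.51 ± 0.15 in TMD8 and -0.76 ± 0.16 in HBL1), and NGI-1 in TMD8 at 6 and 24 h (-0.52 ± 0.15 and -0.49 ± 0.15) and in HBL1 at 24 h (-1 ± 0.18). At 24 h in HBL1 the NGI-1 libraries were at 6.95 and 9.95 CPM and the vehicle libraries at 17.5 and 16.1 CPM. The calls with copanlisib at 6 h in both lines and at 24 h in TMD8, with acalabrutinib in HBL1 and with NGI-1 in HBL1 passed with each library left out in turn. The copanlisib call at 3 h was lost in TMD8 without vehicle replicate 2 or either copanlisib library (adjusted p up to 0.36) and in HBL1 without copanlisib replicate 2 (0.074). That at 24 h in HBL1 was lost without replicate 1 of either group (up to 0.36). In TMD8 at 6 h the acalabrutinib call was lost without either vehicle library or acalabrutinib replicate 2 (up to 0.43) and the NGI-1 call without any 1 of the 4 libraries (up to 0.23). The NGI-1 call at 24 h was lost without NGI-1 replicate 1 or vehicle replicate 2 (up to 0.093).

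IER3, a stress-induced gene with roles in cell survival, was at 10.5 to 13.3 CPM in the 6 vehicle libraries of TMD8 and at 0.47 to 2.89 CPM in all HBL1 libraries. In TMD8 at 24 h it was at 11.7 and 10.5 CPM with DMSO, 4.37 and 2.87 CPM with acalabrutinib, 6.26 and 4.58 CPM with copanlisib, and 5.29 and 5.86 CPM with NGI-1. The falls were 1.61 ± 0.26, 1.02 ± 0.24 and 0.99 ± 0.25, and each passed with every library left out in turn. Copanlisib also lowered it at 3 h (-1.16 ± 0.24), a call lost without vehicle replicate 1 or copanlisib replicate 2 (adjusted p up to 0.12). In HBL1 no IER3 difference from vehicle passed, at 4 to 32 reads a library.

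**Figure D3:**
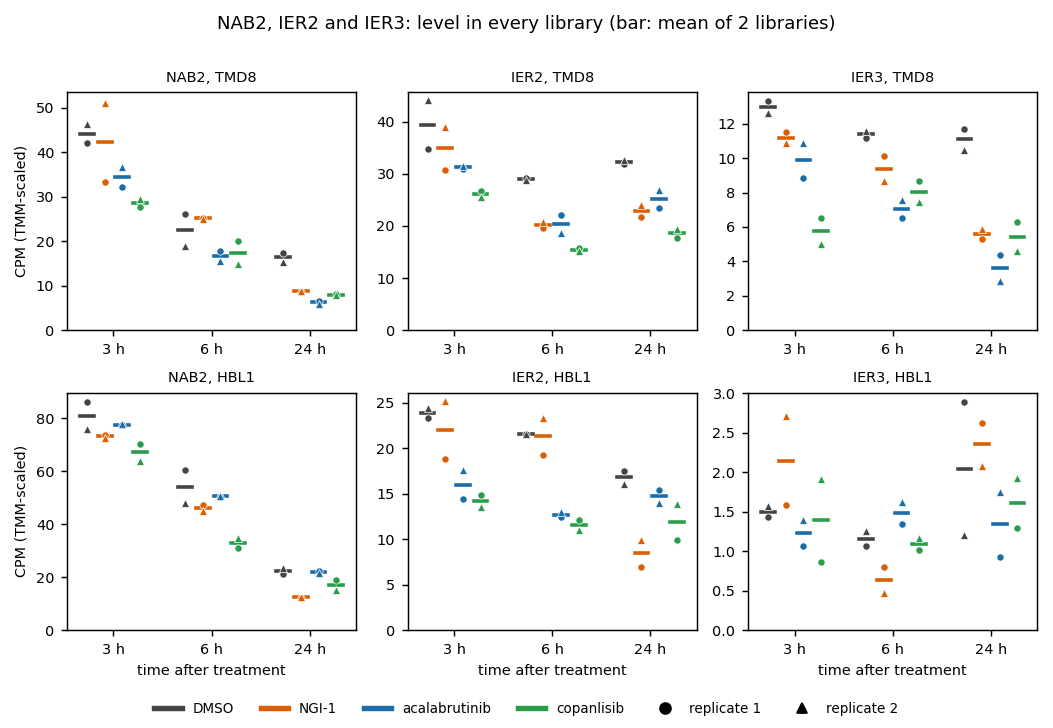
Levels of NAB2, IER2 and IER3 in CPM (TMM-scaled, linear axes starting at 0, different in each panel) in TMD8 (top) and HBL1 (bottom) by time and compound; symbols are libraries and bars are means of 2. In TMD8 at 24 h the 6 treated libraries of NAB2 and of IER3 lay below both vehicle libraries, and IER3 stayed under 3 CPM throughout HBL1.

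Counted over the genes, acalabrutinib lowered 2, 4 and 3 of 8 at 3, 6 and 24 h in TMD8, where 0.339%, 2.8% and 15.5% of all genes were lower. In HBL1 it lowered 0, 2 and 0 of 8, against 0.195%, 3.16% and 11.4%. Copanlisib lowered 6, 5 and 4 of 8 in TMD8 (all genes 1.06%, 7.42% and 16%) and 5, 5 and 1 of 8 in HBL1 (1.37%, 5.34% and 17.7%). NGI-1 lowered 0, 3 and 4 of 8 in TMD8 (0.166%, 1.99% and 14.8%) and 0, 0 and 7 of 8 in HBL1 (0%, 0.072% and 11.4%). No gene of the 8 was called higher with any compound. The share of all genes called higher at 3, 6 and 24 h was 0.569%, 2.26% and 15.6% with NGI-1 in TMD8 and 0.353%, 1.08% and 7.87% in HBL1. With acalabrutinib it was 0%, 1.7% and 15.3% in TMD8 and 0.0288%, 2.46% and 7.53% in HBL1. With copanlisib it was 0.656%, 6.98% and 15.6% in TMD8 and 0.85%, 4.2% and 12.5% in HBL1. At 24 h the counts of 3 and 4 of 8 in TMD8 stood on a high background, and the count of 1 of 8 with copanlisib in HBL1 was below it. The median log2 difference of the 8 genes with copanlisib was -1.45 at 3 h in TMD8 and -1.61 in HBL1, with a median over all tested genes of 0.01 in each. With NGI-1 the median was -0.11 and -0.13 at 3 h and -0.95 and -1.38 at 24 h, in TMD8 and HBL1 respectively. Where edgeR called 0 of the 8, the count at an unadjusted p under 0.05 was 5 for acalabrutinib in HBL1 at 3 h and 0 at 24 h, and for NGI-1 1 at 3 h in TMD8 and 0 and 3 at 3 and 6 h in HBL1. DESeq2 called 1 in the first of these comparisons and 0 in the others, with an adjusted p for only 3 of 8 genes with NGI-1 in HBL1 at 3 h. In HBL1, where deviations of same-numbered libraries correlated at 0.12 to 0.24 in 18 of 18 pairs of groups (TMD8: 0.05 to 0.3, 6 of 18 over 0.1), a replicate block within each line and time gave 6, 6 and 0 of 8 lower with acalabrutinib at 3, 6 and 24 h and 7, 7 and 3 with copanlisib. In TMD8 it gave 5, 8 and 5 with acalabrutinib and 8, 7 and 5 with copanlisib. The 3 compounds share the vehicle libraries of each line and time, so the comparisons with vehicle are not independent of each other.

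Some changes against vehicle differed between 3 h and 24 h. In HBL1 the copanlisib effect on EGR2 and EGR3 was weaker at 24 h than at 3 h (difference of effects 2.02 ± 0.58 and 1.42 ± 0.42, adjusted p = 0.022 and 0.024), as was the acalabrutinib effect on EGR2 (1.95 ± 0.57, adjusted p = 0.045). These are 2 of 8 genes where 3.59% of all genes had a higher effect, and 1 of 8 where 1.92% had. The NGI-1 effect was more negative at 24 h than at 3 h for EGR2, IER2 and NAB2 in HBL1 (-3.02 ± 0.76, -0.90 ± 0.23 and -0.70 ± 0.21; 3 of 8, all genes 2.54%) and for EGR2 and NAB2 in TMD8 (-1.46 ± 0.46 and -0.85 ± 0.23; 2 of 8, all genes 5.96%). The acalabrutinib effect in TMD8 was more negative at 24 h for EGR2, IER3 and NAB2 (3 of 8, all genes 7.8%). No gene of the 8 passed for copanlisib in TMD8 (0 at an unadjusted p under 0.05, and 0 with DESeq2), where 5.06% of all genes had a higher effect and 5.86% a lower one. Of these 11 calls, the NAB2 change with acalabrutinib (-1.03 ± 0.24) passed with each library left out in turn, and the other 10 were lost without at least 1 library (adjusted p up to 0.22), each named in the closing section.

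**Figure D4:**
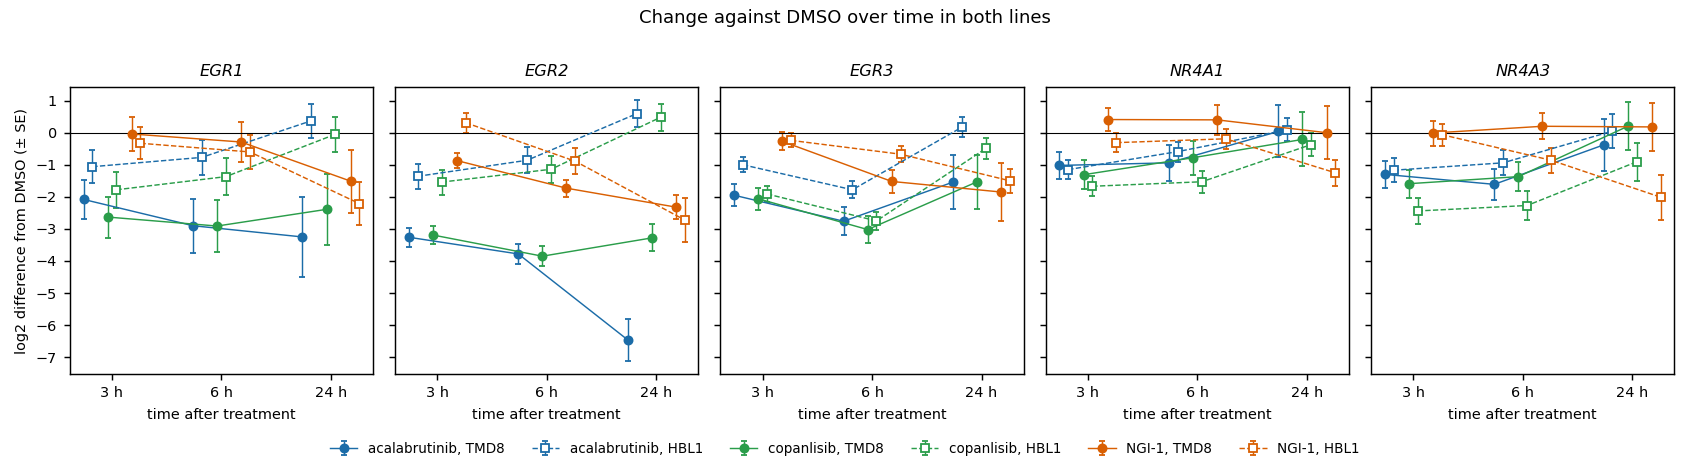
Log2 difference from DMSO (± SE, 2 libraries a group) of EGR1, EGR2, EGR3, NR4A1 and NR4A3 at 3, 6 and 24 h, with filled circles for TMD8, open squares for HBL1, and colours for compounds. In HBL1 the kinase inhibitor lines were nearer to 0 at 24 h than at 3 h, while the NGI-1 line of each of the 5 genes was at its lowest at 24 h, from -1.25 for NR4A1 to -2.72 for EGR2.

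Between the lines, the effect of the kinase inhibitors on EGR2 differed. TMD8 minus HBL1, the acalabrutinib effect on EGR2 was -2.92 ± 0.55 at 6 h and -7.05 ± 0.85 at 24 h (adjusted p = 0.007 and 7.2e-07), and the copanlisib effect was -2.71 ± 0.58 and -3.76 ± 0.62 (adjusted p = 0.012 and 0.00011). NAB2 differed for acalabrutinib at 24 h (-1.36 ± 0.25, adjusted p = 0.00033). The counts were 1 of 8 at 6 h and 2 of 8 at 24 h for acalabrutinib (all genes 0.108% and 2%), and 1 of 8 at each time for copanlisib (0.231% and 1.99%). The calls at 24 h passed with each library left out in turn. The EGR2 value of -7.05 rests on 2 reads in TMD8 and was -10.21 without TMD8 acalabrutinib replicate 1 and -6.15 without its replicate 2. Those at 6 h were lost without TMD8 acalabrutinib replicate 1, HBL1 vehicle replicate 1 or HBL1 acalabrutinib replicate 2 (adjusted p up to 0.68), and for copanlisib without TMD8 copanlisib replicate 1, HBL1 vehicle replicate 1 or either HBL1 copanlisib library (up to 0.19). The NGI-1 effect was not called different between the lines for any of the 8 genes at any time, with 1, 1 and 3 of 8 at an unadjusted p under 0.05 at 3, 6 and 24 h, and 0 with DESeq2, which gave an adjusted p for only 1 of 8 at 6 h. Of all genes, 0.0144%, 0.0144% and 1.81% had a higher NGI-1 effect in TMD8 at 3, 6 and 24 h. A lower one was called for 0%, 0.0072% and 0.764%, so the counts of 0 were near the background. For NR4A3 at 24 h the NGI-1 difference between the lines was 2.19 ± 1.06, with a 95% interval of 0.11 to 4.27 before adjustment. With a replicate block within each line and time, more line differences were called over all compounds, as counted in the closing section.

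Compared directly, with no vehicle library involved, copanlisib and acalabrutinib differed for none of the 8 genes in any line or time by edgeR (0 of 48 tests, 13 at an unadjusted p under 0.05, and 1 with DESeq2). Few genes of the whole table differed either: at 3, 6 and 24 h the shares lower with copanlisib were 0.158%, 0.0576% and 0.151% in TMD8 and 0.0072%, 0.072% and 0.0432% in HBL1. The shares higher were 0.18%, 0.223% and 0.31% in TMD8 and 0.0144%, 0.0216% and 0.0576% in HBL1. The nearest was NAB2 in HBL1 at 6 h (-0.62 ± 0.14, adjusted p = 0.054), where copanlisib libraries were at 31 and 34.9 CPM and acalabrutinib libraries at 50.2 and 50.8 CPM. With the replicate block within each line and time, 10 of the 48 tests were called, 9 of them lower with copanlisib, of which 7 were in HBL1. In that fit NR4A3 in HBL1 was lower with copanlisib at 3, 6 and 24 h (-1.21, -1.31 and -0.97, largest adjusted p of the 3, 0.013), as were NR4A1 and NAB2 at 6 h (-0.94 and -0.62). The count of 0 thus depends on the fit. It also moved with other filters, separate line fits or DESeq2, as counted in the closing section. Intervals without the block were wide: for EGR2 in TMD8 at 3 h the difference was 0.07 with a 95% interval of -0.61 to 0.75, and for EGR1 at 6 h -0.01 with -2.35 to 2.33. NGI-1 left several genes higher than the kinase inhibitors at early times. Against acalabrutinib in TMD8, 2, 3 and 1 of 8 were higher at 3, 6 and 24 h (all genes 0.915%, 2.32% and 1.1%), and none was lower (0.0648% of all genes at 3 h). EGR2 was among the higher genes each time (2.40 ± 0.29, 2.04 ± 0.36 and 4.13 ± 0.93). The last rests on 37 reads against 2 and was lost without NGI-1 replicate 1 or acalabrutinib replicate 2 (adjusted p up to 0.25). In HBL1, 1 and 2 of 8 were higher at 3 and 6 h (0.8% and 2.33%). Against copanlisib, 6 and 3 of 8 were higher in TMD8 at 3 and 6 h (1.51% and 3.26%) and 5 and 4 of 8 in HBL1 (1.89% and 3.94%), including NR4A3 in HBL1 at 3 h (2.38 ± 0.41, and 1.72 without NGI-1 replicate 2) and EGR2 in TMD8 at 3 h (2.32 ± 0.29). With each library left out in turn, 4 of the 14 calls against acalabrutinib and 7 of the 19 against copanlisib were kept, over both directions and all times.

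At 24 h in HBL1 the differences had the other sign. NGI-1 libraries were below acalabrutinib libraries for EGR1, EGR2, EGR3, NAB2 and IER2, 5 of 8 genes where 1.64% of all genes were lower, at -2.57 ± 0.66, -3.31 ± 0.63, -1.67 ± 0.37, -0.82 ± 0.17 and -0.80 ± 0.18. The EGR2 and NAB2 differences passed with each library left out in turn, but the EGR2 value rests on 7 and 0 reads with NGI-1 and was -8.18 without NGI-1 replicate 1 and -2.39 without its replicate 2. The EGR1 difference was lost without any 1 of the 4 libraries (adjusted p up to 0.34), EGR3 without NGI-1 replicate 2 (0.084) and IER2 without replicate 1 of either compound (up to 0.29). NR4A1 and NR4A3 had differences of -1.33 ± 0.41 and -2.06 ± 0.70 that did not pass (adjusted p = 0.078 and 0.13). Against copanlisib, EGR2 was lower with NGI-1 (-3.20 ± 0.64, 1 of 8, all genes 2.28%; -8.07 and -2.28 without NGI-1 replicate 1 and 2). With the replicate block within each line and time, 7 of 8 were lower with NGI-1 than with acalabrutinib there and 6 of 8 than with copanlisib. In TMD8 at 24 h NGI-1 and copanlisib did not differ for any of the 8 genes by edgeR or DESeq2 (0 at an unadjusted p under 0.05). Few of all genes differed there either, with 1.07% higher and 0.288% lower with NGI-1.

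**Figure D5:**
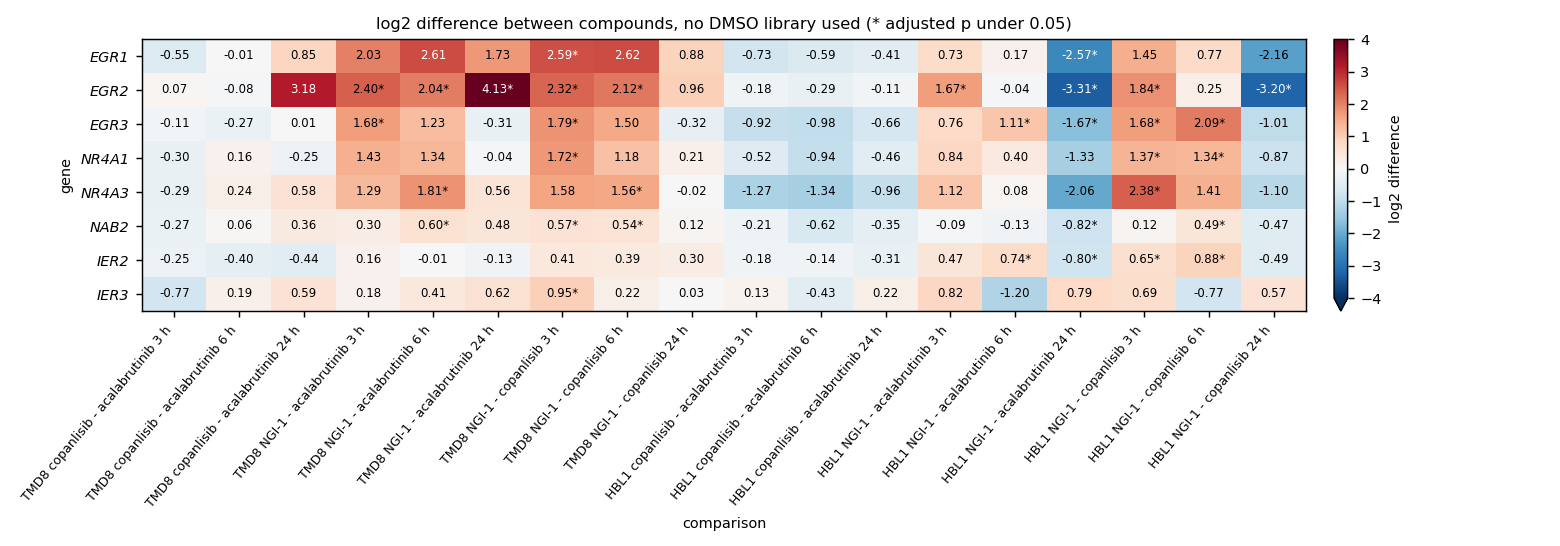
Log2 difference of each gene (rows) between 2 compounds at matched line and time (columns; first compound minus second), with an asterisk where the adjusted p was under 0.05. The 18 columns hold no mark for copanlisib minus acalabrutinib, and the NGI-1 columns against acalabrutinib in HBL1 were positive for 7 of 8 genes at 3 h and negative for 7 of 8 at 24 h.

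The surrounding pathway was followed in 5 lists. Of 4 tested relatives of the members (EGR4, NR4A2, NAB1 and IER5), acalabrutinib lowered 7 of 24 tests, copanlisib 6 and NGI-1 2 (29.2%, 25% and 8.33%), and none was raised. Over the same 6 comparisons, 5.56%, 8.13% and 4.73% of the tests of all genes were lower and 4.51%, 6.81% and 4.62% higher with acalabrutinib, copanlisib and NGI-1, and the list counts below stand beside these shares. NAB1, the paralogue of NAB2, fell at 24 h in TMD8 by 1.14 ± 0.14 with acalabrutinib, 0.89 ± 0.13 with copanlisib and 0.99 ± 0.14 with NGI-1, and IER5 fell in HBL1 at 6 h by 0.67 ± 0.10 with acalabrutinib and 0.72 ± 0.10 with copanlisib. Of 22 other immediate early genes (132 tests per compound), 30 tests were lower and 6 higher with acalabrutinib, 38 and 5 with copanlisib, and 24 and 3 with NGI-1. The lower shares were 22.7%, 28.8% and 18.2%. At 3 h in TMD8, 5 of 22 were lower with acalabrutinib and 6 with copanlisib, with CD69, an early activation antigen, at 16.8 CPM with DMSO on average, 2.52 CPM with acalabrutinib (-2.73 ± 0.56) and 4.27 CPM with copanlisib (-1.97 ± 0.51). BTG2, an antiproliferative gene, rose in HBL1 at 24 h with copanlisib by 1.89 ± 0.08, from a mean of 202 to 751 CPM.

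Among 6 tested ERK feedback genes, 15 of 36 tests were lower with copanlisib, 9 with acalabrutinib and 6 with NGI-1, and 1 was higher with each. The lower shares were 41.7%, 25% and 16.7%, against 8.13%, 5.56% and 4.73% of all tests. DUSP2, a nuclear phosphatase that inactivates ERK, fell in TMD8 by 3.35 ± 0.23 with acalabrutinib at 24 h and by 2.76 ± 0.16 with copanlisib at 6 h, and in HBL1 by 1.82 ± 0.18 with NGI-1 at 24 h. DUSP5 of the same list rose in TMD8 with NGI-1 at 24 h (0.77 ± 0.17), from a mean of 131 to 224 CPM. In HBL1 it was lower with copanlisib at 24 h (-0.97 ± 0.32). Of the ERK cascade genes and SRF or ETS factors, 12, 11 and 12 of 114 tests were lower with acalabrutinib, copanlisib and NGI-1 (10.5%, 9.65% and 10.5%) and 3, 7 and 4 higher. With copanlisib the lower share was near the 8.13% of all tests. At 3 h none was called with any compound in either line (edgeR). ETV4 fell in TMD8 at 24 h with each compound (-1.98 ± 0.36, -1.70 ± 0.35 and -1.78 ± 0.36), as did RASGRP1, a RAS activator, in HBL1 (-1.82 ± 0.21, -1.55 ± 0.20 and -1.67 ± 0.20). In the calcium and NFAT list, higher calls outnumbered lower ones with each compound over all times together (12 to 4, 15 to 9 and 8 to 3 of 102 tests with acalabrutinib, copanlisib and NGI-1). The higher shares were 11.8%, 14.7% and 7.84% against 4.51%, 6.81% and 4.62% of all tests, and the lower shares 3.92%, 8.82% and 2.94% were near the background. At 3 h no gene of this list was called higher. Called lower then were 1 of 17 with acalabrutinib in HBL1, and 1 and 2 of 17 with copanlisib in TMD8 and HBL1. The shares of all genes called lower there were 0.195%, 1.06% and 1.37%. ITPR2, an IP3 receptor, was higher in TMD8 at 24 h (1.09 ± 0.09, 1.18 ± 0.09 and 0.98 ± 0.09) and NFATC1 was lower in HBL1 with copanlisib at 6 h (-1.35 ± 0.09).

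Across the 24 group means, centred within each line, the members tracked each other to different degrees. Pearson's r, given as a description over groups that share vehicle libraries, time and depth, was 0.96 for NR4A1 with NR4A3, 0.95 for EGR1 with EGR2 and 0.95 for EGR3 with NR4A1, and 0.12 for IER2 with IER3. Within HBL1, where its level was low, IER3 had a negative r with each other member (-0.14 to -0.34), and within TMD8 a positive one (0.52 to 0.92). Among 11021 other genes whose mean log2 CPM was 1 or more, those most like the mean profile of the members were DUSP2 (0.95), CD83 (0.95), ZC3H12A (0.94), PDCD1 (0.93), PPP1R15A (0.93), LOC100288133 (0.92), MYC (0.92) and PIM3 (0.91). The nearest to single members were TNF for EGR1 (0.90), DUSP2 for EGR2 (0.92), ZC3H12A for EGR3 (0.94), NIPA2 for NR4A1 (0.92), HIVEP3 for NR4A3 (0.94), SRF for NAB2 (0.96), NFATC1 for IER2 (0.87) and ZCCHC9 for IER3 (0.82). PDCD1, the gene of the receptor PD-1, fell in TMD8 at 24 h by 1.63 ± 0.30 with acalabrutinib, 1.65 ± 0.30 with copanlisib and 0.94 ± 0.27 with NGI-1. In HBL1 it did not pass with acalabrutinib at 3 or 6 h (-0.35 ± 0.12 and -0.04 ± 0.13, adjusted p = 0.6 and 0.93). With NGI-1 it passed in HBL1 at 24 h (-0.83 ± 0.14), but in neither line at 3 or 6 h. PPP1R15A was not called with NGI-1 in either line at any time.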

How the data were processed

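RNA of TMD8 and HBL1 cells was sequenced in 48 standard Illumina libraries, per the labels' protocols. The deposited values were whole read counts per gene, which the authors made with HTSeq on hg19, per the submitters' processing notes. Versions, the aligner and the use of strand are not given in the sources used here. Rows without a gene ID (3449, 0.815% of reads) stayed in the table and tests. Promoter sequences came from RefSeq (GRCh38.p14), a build other than that of the counts, and were matched by symbol. Exon overlaps came from GENCODE.

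Counts were fitted with edgeR 4.0.16 in R 4.3.3 (filterByExpr by group, TMM scaling, quasi-likelihood F test with a robust prior, 1 mean for each of 24 groups), with Benjamini-Hochberg adjustment within each of 58 comparisons and calls at an adjusted p under 0.05. CPM are TMM-scaled. Log2 values for profiles used a prior count of 2. Intervals are at 95%, and count ratios near 0 have exact intervals that cover counting error only. The robust prior was chosen after calls without it had been seen. Depth was 7165377 to 11999050 reads a library. The script was tested on simulated data. Alternatives were RLE scaling, other filters, separate fits of each line, a replicate block, DESeq2 1.42.0 and leaving out each library. Deviations of same-numbered libraries correlated over 0.1 in all 18 pairs of groups in HBL1 and in 6 of 18 in TMD8. The fit with the block is therefore given beside some of the results it moves. For the others, only its counts of calls are given, in the closing section. Every member is named. Of each list, up to 3 called genes with the largest change per compound could be named, and the genes with the most similar profile for each member. The members and lists were chosen with earlier results of these data known.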

Additional observations from a re-analysis of the deposited data

Results flagged for a closer look

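Effects against vehicle that differed between the lines or between 3 h and 24 h were marked for a second look, with log2 differences of effects tested in edgeR. TMD8 minus HBL1, these were EGR2 with acalabrutinib at 6 h (-2.92) and 24 h (-7.05, on 2 reads in the TMD8 acalabrutinib libraries, and -10.21 to -6.15 with a library left out), NAB2 with acalabrutinib at 24 h (-1.36), and EGR2 with copanlisib at 6 h (-2.71) and 24 h (-3.76). The 3 at 24 h passed with each library left out in turn.

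Between the times, 24 h minus 3 h, NGI-1 in TMD8 gave EGR2 (-1.46, lost without either 3 h vehicle library, 24 h vehicle replicate 1, or NGI-1 replicate 2 at 3 h or 24 h) and NAB2 (-0.85, lost without vehicle replicate 1 at 3 h or 24 h, NGI-1 replicate 2 at 3 h or replicate 1 at 24 h). In HBL1, NGI-1 gave EGR2 (-3.02, from -7.9 to -2.11 with a library left out and lost without 24 h vehicle replicate 1 or NGI-1 replicate 2 at 3 h or 24 h), IER2 (-0.9, lost without vehicle replicate 1 at 3 h or 24 h, NGI-1 replicate 2 at 3 h or replicate 1 at 24 h) and NAB2 (-0.7, lost without 7 of its 8 libraries, all but 3 h vehicle replicate 1).

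Acalabrutinib in TMD8 gave EGR2 (-3.19, from -6.36 to -2.3 with a library left out and lost without 24 h vehicle replicate 1 or acalabrutinib replicate 2 at 3 h or 24 h), IER3 (-1.22, lost without acalabrutinib replicate 2 at 3 h or 24 h) and NAB2 (-1.03, kept). In HBL1 acalabrutinib gave EGR2 (1.95, lost without 7 of its 8 libraries, all but 3 h acalabrutinib replicate 2). Copanlisib in HBL1 gave EGR2 (2.02, lost without copanlisib replicate 1 or vehicle replicate 2 at 3 h or 24 h) and EGR3 (1.42, lost without replicate 1 of either 3 h group or replicate 2 of either 24 h group).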

How the results depend on the processing

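Of 5928 recomputed values of single members, 5433 kept their side of the threshold, 198 lost a call (182 of them with a library left out) and 297 gained one. No called value changed sign. Among the 5433, 167 values that were called in neither fit did change sign. Counts of members called moved by over 1.5 times as follows. Without a filter on low counts they were 26 for acalabrutinib against vehicle (11 in the reported fit), 7 for copanlisib against acalabrutinib (0), 26 for NGI-1 against acalabrutinib (14), 30 for NGI-1 against copanlisib (19), 14 for the line difference (5) and 24 for 24 h minus 3 h (11). With the replicate block they were 18 for acalabrutinib against vehicle and 1 for copanlisib against acalabrutinib, and 1 for the latter also with a stricter filter, separate line fits or DESeq2. With the replicate block within each line and time they were 30, 10, 25, 32, 15 and 25 in the order above, 23 for the vehicle time course (15), and for list genes 110 with NGI-1 (63), 138 with acalabrutinib (84) and 165 with copanlisib (107). The causes were not tested. Deviations of same-numbered libraries correlated at 0.12 to 0.24 in HBL1 (18 of 18 pairs of groups over 0.1) and at 0.05 to 0.3 in TMD8 (6 of 18), and the labels do not say what the numbers mark. A prior that is not robust, added after seeing the data, lost 1 call of a member and gained 19.

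With each library left out in turn, a lone library being assumed to vary like the other groups, the counts ranged from 9 to 15 for NGI-1 against vehicle (14 in all), 9 to 11 for acalabrutinib, 22 to 27 for copanlisib, 3 to 6 for the line difference and 7 to 11 for 24 h minus 3 h. The lowest NGI-1 and 24 h minus 3 h counts were without replicate 1 of the HBL1 24 h vehicle group, and the lowest line count without replicate 1 of its 6 h group. Having 2 libraries a group limits the precision, and genes near 0 reads, such as EGR2 and EGR3 in TMD8 at 24 h, have folds set by a few reads.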
